A study of Mus musculus with 6 samples.

Results

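The genes described here are the cytokines of the IL-10 and IL-20 family and the chains of their receptors, in mouse ear skin. They are the cytokine genes Il10, Il19, Il20, Il24 and Il22 and the receptor genes Il10ra, Il10rb, Il20ra, Il20rb and Il22ra1. Of these 10 genes, 9 were measured, among 19938 genes in all. Il22 was not, because the 2 probe sets listed for it also list its near-identical copy Iltifb. A gene was taken from probe sets listed with 1 symbol, and where it had several, from the one with the highest mean over the 6 arrays. Probe sets were thus chosen by their mean log2 value, which mattered for Il20rb (3 probe sets) and Il22ra1 (2 probe sets). The difference between the groups was not a criterion, although that mean takes in both groups. For Il20rb, a probe set with a higher control mean (8.66 against 8.61) and a larger fall was not chosen.

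RNA came from whole FITC-treated ears of 6 mice aged 10 to 12 weeks, 1 mouse per array. Of these, 3 carried CLEC4C-DTR on a single allele (CLEC4C-DTR/+), a transgene that drives the diphtheria toxin receptor from CLEC4C regulatory sequence, which is active in human plasmacytoid dendritic cells, and the other 3 were littermate controls. All 6 mice, controls included, were injected with 200 ng of diphtheria toxin on days -1, 1, 3 and 5, and were painted with 0.5% FITC in acetone and dibutyl phthalate on the shaved abdomen (100 µL on days 0 and 2) and the right ear (20 µL on day 6). The comparison asks how challenged skin differs between mice that can lose CLEC4C-expressing cells and mice that cannot. No unpainted ear and no transgenic mouse without toxin was used here, so an effect of the transgene alone and of cell loss cannot be told apart, nor can effects on sensitisation and on the challenged ear.

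IL-10 family cytokines signal through pairs of class II cytokine receptor chains that activate Jak kinases and the transcription factor STAT3. IL-10 acts through Il10ra and Il10rb, mainly on leukocytes, and restrains inflammatory cytokine production by macrophages and dendritic cells. IL-19, IL-20 and IL-24 share the Il20ra and Il20rb pair, IL-20 and IL-24 also use Il22ra1 with Il20rb, and IL-22 uses Il22ra1 with Il10rb. In skin these receptors sit on keratinocytes, where the cytokines promote proliferation and antimicrobial defence and slow terminal differentiation.

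The genes Il24, Il20, Il19 and Il10 lie close together on mouse chromosome 1, in that order in the RefSeq gene table. Il20 lies between Il24 and Il19, and a noncoding RNA gene that was not measured, Gm41952, lies between Il19 and Il10. RefSeq promoter windows of build GRCm38.p6 were held for 6 of the 10 genes: Il19, Il20, Il20ra, Il20rb, Il22, Il22ra1. Each precedes 1 transcript start of its gene. The 250 bases before that start are shown for Il19 and Il20, neighbours of which Il19 was called higher and Il20 was not called, with motif matches in capitals. The Il20 window adjoins the listed end of its gene, while the Il19 window lies inside the listed extent of Il19, before an internal transcript start, so it is not the sequence upstream of the whole gene.
Il19, chr1:130940116-130940365, minus strand: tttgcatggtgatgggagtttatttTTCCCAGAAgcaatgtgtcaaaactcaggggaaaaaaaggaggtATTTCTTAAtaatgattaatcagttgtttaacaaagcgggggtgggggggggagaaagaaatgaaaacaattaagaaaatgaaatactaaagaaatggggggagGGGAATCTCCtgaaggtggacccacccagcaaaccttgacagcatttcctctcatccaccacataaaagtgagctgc
Il20, chr1:130911297-130911546, minus strand: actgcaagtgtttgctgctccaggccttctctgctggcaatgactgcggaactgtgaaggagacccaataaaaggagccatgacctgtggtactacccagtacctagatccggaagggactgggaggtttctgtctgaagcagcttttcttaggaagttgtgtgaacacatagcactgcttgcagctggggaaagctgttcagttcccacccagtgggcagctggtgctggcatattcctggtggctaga
The motifs searched, on both strands, were AP-1 (TGANTCA), STAT (TTCNNNGAA), C/EBP (TTNNGNAAT) and the NF-kB motif. In the Il19 window the capitals mark, in order, 1 match to STAT at 225 to 217 bases before that internal start, 1 to C/EBP at 181 to 173 and 1 to NF-kB at 77 to 68, with no overlap. The Il20 window held none of these letters. The Il20rb window also held none, that of Il20ra, which also lies inside its listed gene, held 1 AP-1 and 1 C/EBP match, and that of Il22ra1 held 1 AP-1 and 1 NF-kB match. Of 32851 windows of that length, 7.02% held a STAT match, 10.2% a C/EBP match, 7.25% an NF-kB match and 6.75% an AP-1 match. A match describes letters only.

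Of the 9 measured genes, 4 rose in CLEC4C-DTR skin (Il19, Il24, Il10 and Il10ra), 1 fell (Il20rb) and 4 did not pass the test (Il10rb, Il20ra, Il20, Il22ra1). A gene was called at an adjusted p under 0.05 from limma with Benjamini-Hochberg adjustment over all 19938 genes. Over all genes 9.32% were called, 5.01% as higher and 4.31% as lower (998 and 860 genes, or 1150 and 644 with each array centred on its median). The 4 genes that rose did so by at least 2-fold, as did 1.67% of all genes (2.05% in either direction), and Il20rb fell by less than that. The 3 values of one group lay beyond the 3 of the other in 7 of the 9 genes, 5 higher and 2 lower, against 33.0% of all genes (14.0% higher and 19.0% lower). The median log2 difference was 0.49 over the 9 genes and -0.04 over all genes. In whole skin, more cells of a type and more RNA per cell cannot be told apart.

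**Figure D1:**
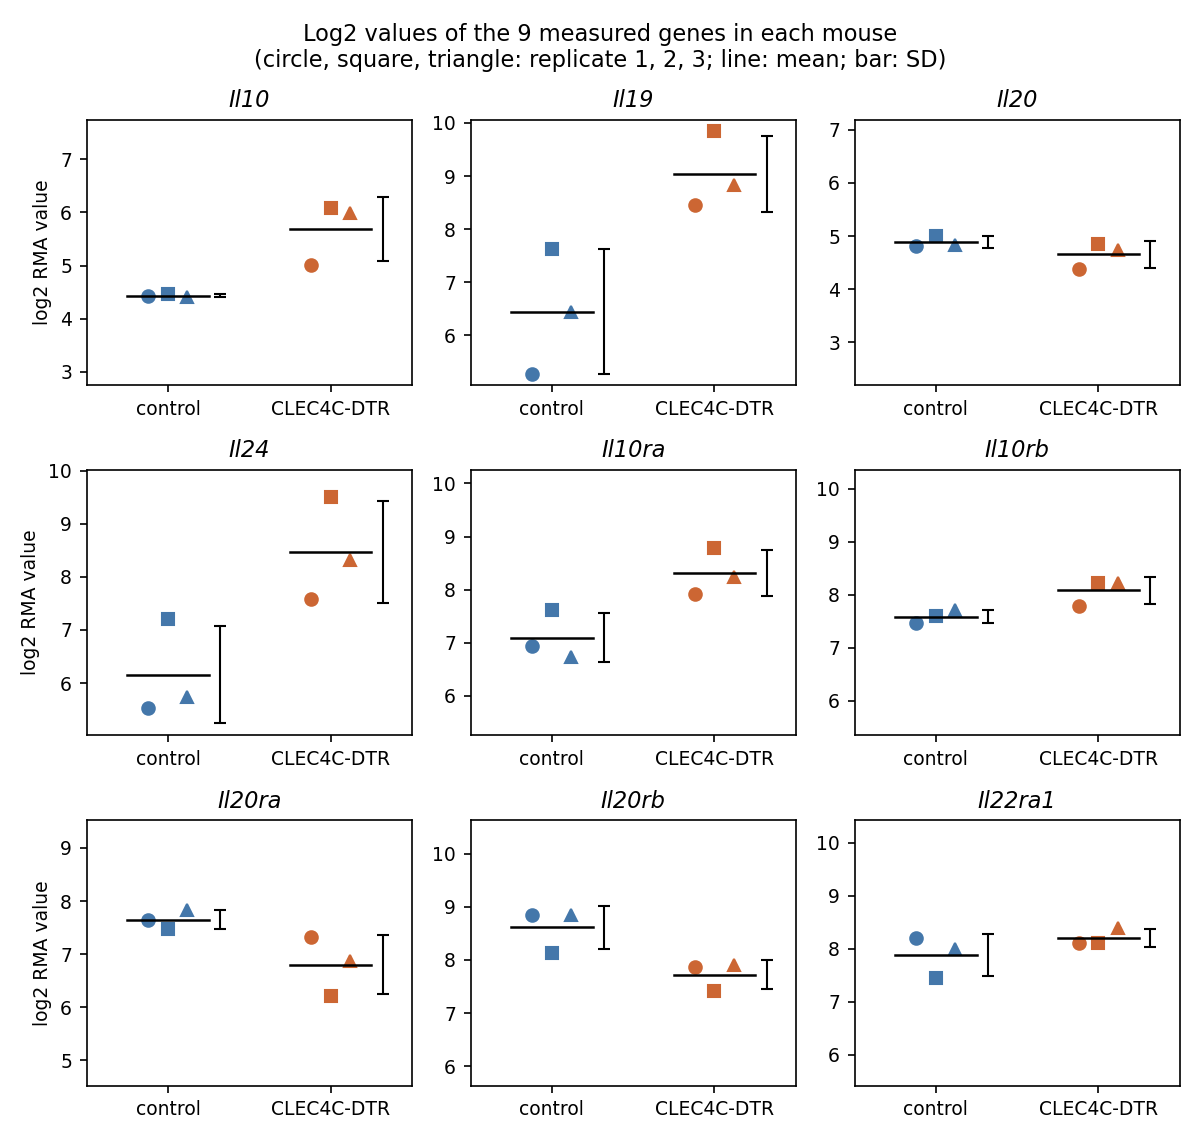
Log2 RMA value of each measured gene in each mouse, by group, with all panels spanning the same number of log2 units; circle, square and triangle are replicates 1, 2 and 3, the line is the mean and the bar the SD (n = 3). The groups are apart in Il10, Il19, Il24, Il10ra, Il10rb, Il20ra and Il20rb and overlap in Il20 and Il22ra1.

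Il19, a cytokine that myeloid cells and keratinocytes make, showed the largest difference of the 9 genes. Its log2 values were 8.45, 9.85 and 8.83 in CLEC4C-DTR replicates 1, 2 and 3, and 5.28, 7.62 and 6.44 in control replicates 1, 2 and 3. The groups did not overlap, and the lowest CLEC4C-DTR mouse lay 0.83 (log2) above the highest control, while the controls spread over 2.34 among themselves. The mean was 9.04 ± 0.72 (SD, n = 3) against 6.45 ± 1.17 (SD, n = 3), a log2 difference of 2.60 (SE 0.56, 6.04-fold, limma adjusted p = 0.0326).

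Il24, made by keratinocytes and activated lymphocytes, rose beside it. Its log2 values were 7.59, 9.50 and 8.32 in CLEC4C-DTR replicates 1 to 3 and 5.53, 7.22 and 5.74 in the controls. Control replicate 2 was the highest control and CLEC4C-DTR replicate 1 the lowest transgenic mouse, as for Il19, and they were 0.38 (log2) apart. The mean log2 value was 8.47 ± 0.96 (SD, n = 3) against 6.16 ± 0.92 (SD, n = 3), a log2 difference of 2.31 (SE 0.55, 4.96-fold, limma adjusted p = 0.0402). The order of the 6 mice, from control replicate 1 through control replicates 3 and 2 and CLEC4C-DTR replicates 1 and 3 to CLEC4C-DTR replicate 2, was that of Il19.

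Il20, the third cytokine that binds the Il20ra and Il20rb pair, did not share this rise. Its log2 values were 4.38, 4.85 and 4.73 in CLEC4C-DTR mice and 4.82, 5.01 and 4.84 in controls, and the groups overlapped. The log2 difference was -0.23 (SE 0.13, limma adjusted p = 0.293), with a 95% interval of -0.53 to 0.07. Il20 and Il10 were the measured genes whose mean level lay under the 25th percentile of all genes, so 7 of 9 passed a filter at that level. The table holds no background measure, and a change of Il20 below what its probe set reads cannot be told from none.

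Changes within the locus were compared on the difference between the log2 values of pairs of its genes in each mouse. Relative to Il20, Il19 rose by 2.83 (log2), Il24 by 2.54 and Il10 by 1.49, with no overlap between the groups in any. The exact permutation test gave p = 0.1 for each, two-sided and unadjusted over 4 such pairs, the smallest p that 3 mice against 3 allow. Il20 read low and spread over only 0.47 (log2) among CLEC4C-DTR mice and 0.19 among controls. The comparisons with it therefore mostly restate the separation of Il19, Il24 and Il10, and cannot show how Il20 itself moved. For Il19 against Il24 the changes differed by 0.28 (exact permutation p = 0.5).

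**Figure D2:**
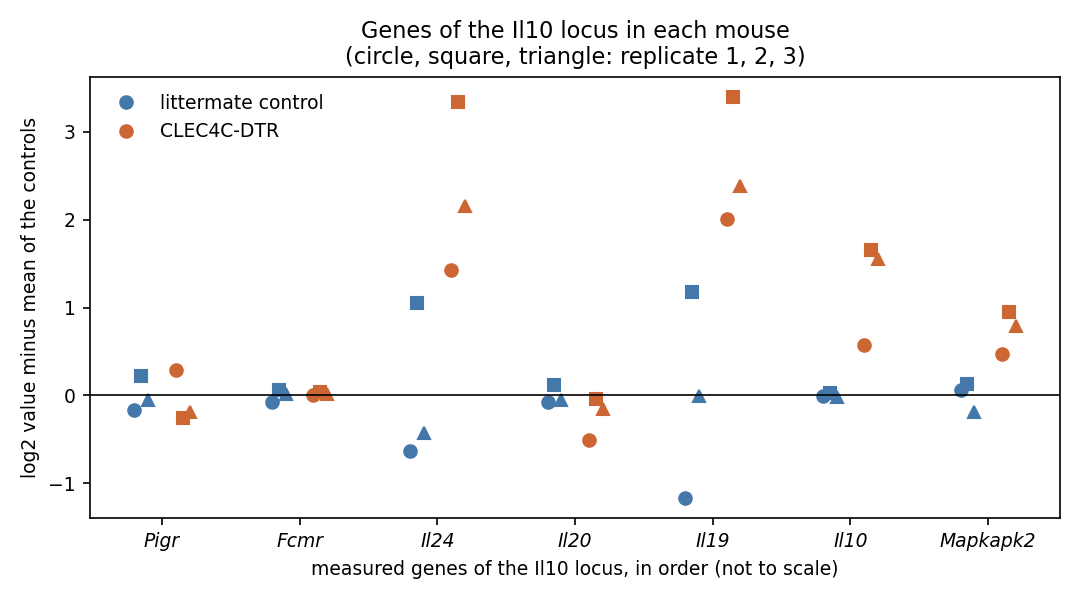
Log2 value minus the mean of the controls for the measured genes of the Il10 locus, in RefSeq gene order but not to scale, with 1 point per mouse. CLEC4C-DTR mice lie above all controls in Il24, Il19, Il10 and Mapkapk2, and the groups overlap in Pigr, Fcmr and Il20.

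Il10, the cytokine that restrains myeloid activation, had log2 values of 5.00, 6.08 and 5.98 in CLEC4C-DTR mice and 4.43, 4.46 and 4.41 in controls. The controls lay within 0.04 (log2) of each other, and CLEC4C-DTR replicate 1 lay closest to them, 0.55 above the highest. The mean log2 value was 5.69 ± 0.60 (SD, n = 3) against 4.43 ± 0.02 (SD, n = 3), a log2 difference of 1.26 (SE 0.25, 2.39-fold, limma adjusted p = 0.0264).

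Of the 3 genes listed on each side of these cytokine genes, 2 were measured on the Il24 side and 1 on the Il10 side. Beyond Il10, Mapkapk2, a kinase of the p38 pathway that stabilises cytokine mRNAs, rose by 0.74 (log2, SE 0.14, limma adjusted p = 0.0230). Its log2 values were 9.19, 9.67 and 9.50 in CLEC4C-DTR mice and 8.78, 8.84 and 8.53 in controls, with no overlap. Beyond Il24, the log2 difference was 0.02 (adjusted p = 0.885) for Fcmr, an Fc receptor for IgM, and -0.05 (adjusted p = 0.872) for Pigr, the polymeric immunoglobulin receptor, both with overlapping groups.

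Among the receptor chains, Il10ra, the chain that binds IL-10 itself and is made mainly by leukocytes, rose. Its log2 values were 7.92, 8.78 and 8.24 in CLEC4C-DTR mice and 6.94, 7.62 and 6.74 in controls. The groups were 0.30 (log2) apart, between control replicate 2 and CLEC4C-DTR replicate 1. The mean log2 value was 8.31 ± 0.43 (SD, n = 3) against 7.10 ± 0.46 (SD, n = 3), a log2 difference of 1.21 (SE 0.27, 2.32-fold, limma adjusted p = 0.0337). Il10rb, the broadly expressed partner chain that the IL-10 and IL-22 receptors share, had log2 values of 7.80, 8.23 and 8.22 against 7.47, 7.59 and 7.71. Its groups were 0.09 (log2) apart and its log2 difference of 0.49 (SE 0.13) did not pass (limma adjusted p = 0.0563).

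Both chains of the receptor that IL-19, IL-20 and IL-24 share had lower values, and Il20rb passed the test. Il20rb, the chain shared by the receptors of IL-19, IL-20 and IL-24, had log2 values of 7.86, 7.41 and 7.91 in CLEC4C-DTR mice and 8.85, 8.14 and 8.85 in controls. Replicate 2 was the lowest mouse of each group, and the groups were 0.23 (log2) apart. The mean log2 value fell from 8.61 ± 0.41 (SD, n = 3) to 7.73 ± 0.27 (SD, n = 3), a log2 difference of -0.89 (SE 0.21, 1.85-fold lower, limma adjusted p = 0.0418). The other 2 probe sets of Il20rb gave log2 differences of -1.03 and -0.86.

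Il20ra, the partner chain found mainly on epithelial cells, had log2 values of 7.33, 6.22 and 6.87 in CLEC4C-DTR mice and 7.65, 7.47 and 7.83 in controls. All 3 transgenic mice lay below all controls, by 0.14 (log2) at the closest, and the spread was 1.11 among CLEC4C-DTR mice and 0.36 among controls. The log2 difference of -0.85 (SE 0.25, 95% interval -1.42 to -0.27) did not pass the test over all genes (limma adjusted p = 0.0721). Il22ra1, the epithelial chain of the receptors of IL-22, IL-20 and IL-24, had log2 values of 8.11, 8.10 and 8.39 against 8.20, 7.45 and 7.99, which overlapped. Its log2 difference was 0.32 (SE 0.19, limma adjusted p = 0.312), and its dimmer probe set gave -0.16.

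**Figure D3:**
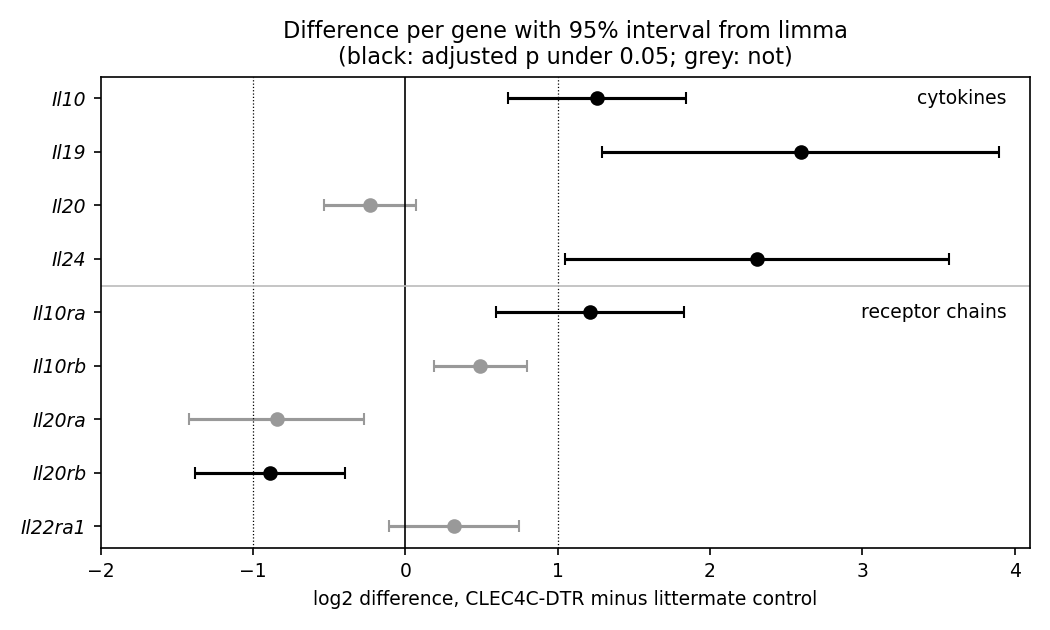
Log2 difference between CLEC4C-DTR and littermate control skin for each measured gene with limma's 95% interval; black marks an adjusted p under 0.05, grey the rest, and dotted lines a 2-fold difference. Il19 and Il24 lie farthest to the right, and Il20rb and Il20ra lie left of 0.

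CLEC4C-DTR replicate 1 had the lowest transgenic value in 6 of the 9 genes, and control replicate 2 the highest control value in 5. With either left out, the calls were those of 7 genes (without CLEC4C-DTR replicate 1, adding Il10rb and Il20ra to the 5) and of 4 genes (without control replicate 2, losing Il10). With CLEC4C-DTR replicate 2, CLEC4C-DTR replicate 3, control replicate 1 or control replicate 3 left out, limma called 0 of the 9 genes, although 8, 7, 8 and 7 of them had an unadjusted p under 0.05. Calls over all 19938 genes also dropped in these fits, to 466, 108, 167 and 67, from 1858 with all arrays. Counts of the lists below with a mouse left out stand beside these numbers. Over the 6 fits with 1 mouse left out, the log2 difference ranged from 2.01 to 3.18 for Il19, 1.80 to 2.84 for Il24, 1.06 to 1.60 for Il10, 0.98 to 1.47 for Il10ra and -1.13 to -0.73 for Il20rb. The directions could not turn, since the groups do not overlap in these genes.

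**Figure D4:**
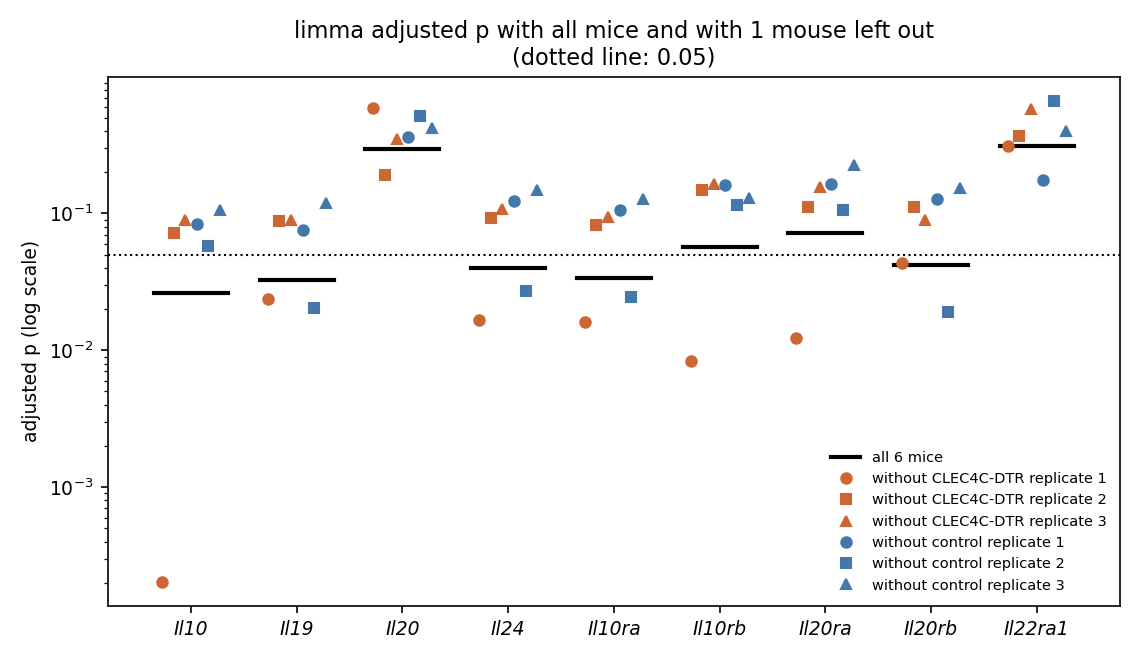
Adjusted p from limma on a log axis for each measured gene with all 6 mice (black line) and with each mouse left out (orange, a CLEC4C-DTR mouse; blue, a control; circle, square and triangle are replicates 1, 2 and 3). Points of the 5 called genes without CLEC4C-DTR replicate 1 stay under the dotted line at 0.05, and those without CLEC4C-DTR replicate 3 or control replicate 3 lie above it.

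The genes whose values over the 6 mice lay closest to those of each called gene were found by the root mean square distance of log2 values, each gene centred on its own mean. Il24 was the closest of all genes to Il19 (0.35, log2), and Il19 the third closest to Il24, where the median over all genes was 1.54 and 1.41. The next closest to Il19 were Cstdc6, a cystatin domain gene (0.42), and Fcgr4, an activating Fc gamma receptor of myeloid cells (0.44). Fcgr4 (0.31) and Epgn, an epithelial ligand of the EGF receptor (0.33), were closest to Il24. Closest to Il10 were Ppp1r3b, Gla and Sorl1 (0.07, 0.07 and 0.09), and to Il10ra Nampt, an enzyme of NAD synthesis (0.05), Fyb, an adaptor of T cells and myeloid cells (0.10), and Gda (0.11). Closest to Il20rb were Prss48, Abca8b and Capns2 (0.07, 0.08 and 0.08). These likenesses rest on 6 mice and on the group difference that chose the genes.

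Around the family, genes that IL-19, IL-20, IL-22 and IL-24 are known to raise in keratinocytes were mostly higher. Of 21 measured, 16 rose and none fell, and 5 did not pass, where limma called 9.32% of all genes. The median log2 difference was 1.64 against -0.04 over all genes. Cxcl5, a neutrophil chemokine, rose 14.5-fold (adjusted p = 0.00919) and Krt17, a stress keratin, 1.90-fold (adjusted p = 0.00937). S100a8 and S100a9, the subunits of calprotectin, which neutrophils also make in quantity, rose 3.06-fold and 2.80-fold. The 5 that did not pass were Vnn3, Defb4, Pdzk1ip1, S100a7a and Vnn1, named after their values were seen, with log2 differences of 0.30, 1.69, 0.15, 0.18 and -0.09. Rises in this list numbered 9 if CLEC4C-DTR replicate 3 or control replicate 3 was left out and 10 if control replicate 1 was.

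Of 7 measured differentiation genes that these cytokines are known to lower in keratinocytes, 1 changed, and it rose: Klk7, a protease that helps shed corneocytes, by 0.92 (log2, adjusted p = 0.0140). It did not pass without CLEC4C-DTR replicate 3 or control replicate 3, where limma called 0 of the list (3 and 2 at an unadjusted p under 0.05). Flg2, a filaggrin-like protein, differed by -1.72 (adjusted p = 0.0803) and passed as lower without CLEC4C-DTR replicate 1 (adjusted p = 0.0187). It did not pass without any other mouse. With all mice Krt10, a suprabasal keratin, differed by -0.46 (adjusted p = 0.120) and Lor, the cornified envelope protein loricrin, by -0.50 (adjusted p = 0.382). Differences were positive in 3 of the 7, Klk7 and, named after their values were seen, Krt1 (0.46, adjusted p = 0.402) and Hrnr (0.06, adjusted p = 0.927). The median of the list was -0.31 (log2), where limma called 9.32% of all genes.

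Cytokines known to induce the IL-20 family in skin had mostly higher values. Of 12 measured, 5 rose and none fell, and 7 did not pass, where limma called 9.32% of all genes. The median log2 difference was 1.16. Il1a and Il1b, the IL-1 cytokines, rose 8.46-fold (adjusted p = 0.0169) and 5.40-fold (adjusted p = 0.0192). Osm, the myeloid cytokine oncostatin M, rose 5.06-fold (adjusted p = 0.0188) and Il36g, listed as Il1f9, 3.62-fold (adjusted p = 0.0261). The fifth, Tnf, rose 2.51-fold (adjusted p = 0.0287) and was named after its values were seen. Rises numbered 7 if CLEC4C-DTR replicate 1 was left out and 1 if CLEC4C-DTR replicate 2 was. Limma called 0 once CLEC4C-DTR replicate 3, control replicate 1 or control replicate 3 was dropped, although 9, 10 and 9 genes had an unadjusted p under 0.05.

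In the list of genes known to respond to IL-10 in myeloid cells, 6 of 12 rose and none fell, and 6 did not pass. The median log2 difference was 0.99, where limma called 9.32% of all genes. Cd163, a haemoglobin scavenger receptor of macrophages, rose 2.91-fold (adjusted p = 0.0186), Nfil3, a transcription factor, 2.65-fold (adjusted p = 0.0206), Il4ra, a chain of the IL-4 and IL-13 receptors, 2.40-fold (adjusted p = 0.0178) and Hmox1, haem oxygenase, 2.26-fold (adjusted p = 0.0274). Rises numbered 1 if CLEC4C-DTR replicate 2 or control replicate 1 was dropped. Limma called 0 if CLEC4C-DTR replicate 3 or control replicate 3 was dropped, although 9 and 8 genes had an unadjusted p under 0.05.

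Of 11 measured genes of Jak and STAT signalling, 1 rose and none fell, and 10 did not pass, for a median log2 difference of 0.23. That count is near the share of all genes called, 9.32%. The gene that rose was Socs3, the feedback inhibitor that STAT3 induces. Socs3 is also counted among the rises of the IL-10 response list. Its log2 values were 9.03, 9.68 and 9.49 in CLEC4C-DTR mice and 7.98, 8.88 and 7.90 in controls (log2 difference 1.15, SE 0.27, adjusted p = 0.0397). The feedback inhibitor Socs1 differed by 0.39 (adjusted p = 0.0507), Stat3 by 0.38 (adjusted p = 0.0654) and Jak2 by 0.51 (adjusted p = 0.0665). Rises numbered 2 if CLEC4C-DTR replicate 1 was dropped and 3 if control replicate 2 was. Limma called 0 if any of the other 4 mice was dropped, although 4 or 5 genes had an unadjusted p under 0.05.

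Where limma called 9.32% of all genes, 2 of 7 other genes of the class II receptor family rose and none fell, with a median log2 difference of 0.25. They were Ifnar1 and Ifnar2, the chains of the type I interferon receptor, which rose by 0.46 (adjusted p = 0.0293) and 0.42 (adjusted p = 0.0413) on the log2 scale. F3, tissue factor, differed by 0.87 (adjusted p = 0.0670) and Ifngr2, a chain of the interferon gamma receptor, by 0.25 (adjusted p = 0.0751). Il22ra2, the soluble decoy that binds IL-22, was named for its place in the pathway and differed by -0.13 (adjusted p = 0.619). This count was 3 without CLEC4C-DTR replicate 1, 1 without control replicate 2 and 0 in limma with any other mouse left out, where 4 or 5 had an unadjusted p under 0.05.

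Among 4 other class II cytokines measured, limma called 0, 0 had an unadjusted p under 0.05, and the median log2 difference was -0.00. Over all genes limma called 9.32%. Ifng, interferon gamma, differed by 1.05 (adjusted p = 0.331), with overlapping groups, Ifnk by -0.30 (adjusted p = 0.416), Ifnl2 by -0.12 (adjusted p = 0.446) and Ifnb1 by 0.12 (adjusted p = 0.462).

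**Figure D5:**
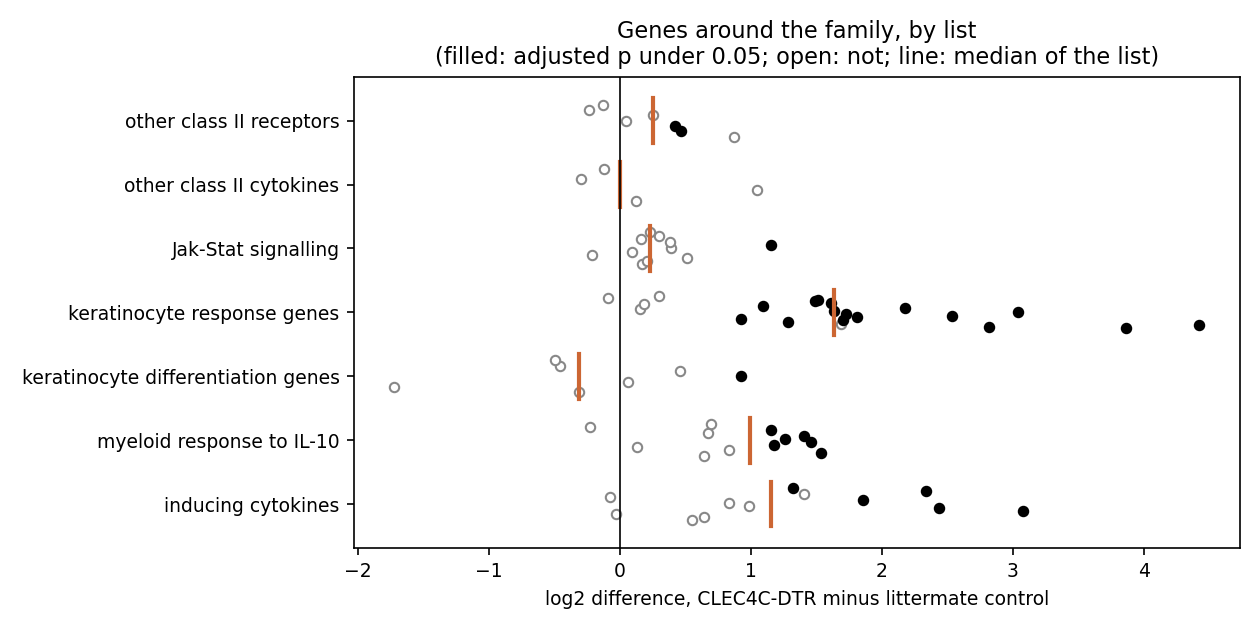
Log2 difference between CLEC4C-DTR and control skin of each measured gene of the 7 lists around the family; filled points have an adjusted p under 0.05, open points do not, and the orange line is the median of the list. The keratinocyte response genes, the inducing cytokines and the genes that respond to IL-10 hold most of the filled points.

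Most of the monocyte, macrophage and neutrophil markers rose, where limma called 9.32% of all genes. Of 8 monocyte and macrophage markers, 5 rose and none fell, and the list mean, taken relative to the average control, was 0.74 to 1.16 (log2) in CLEC4C-DTR mice and -0.17 to 0.18 in controls. Cd68, a lysosomal protein, rose by 0.92, Mrc1, the mannose receptor, by 1.57, Cd14, a co-receptor for lipopolysaccharide, by 3.09 and C1qa, a complement gene, by 1.13 (log2). Of the 3 that did not pass, all named after their values were seen, Adgre1 and Ccr2 differed by 0.36 and 0.24 (log2). Lyz2 differed by -0.21 (log2, adjusted p = 0.139), with every CLEC4C-DTR mouse below every control. Of 8 neutrophil markers 7 rose and none fell (list mean 1.19 to 2.39 in CLEC4C-DTR mice and -0.19 to 0.11 in controls, log2), Retnlg by 2.92 and Mmp9 by 2.27. Mpo, named after its values were seen, did not pass and differed by -0.19 (log2). The rises include S100a8 and S100a9, which are also counted in the keratinocyte response list. With a mouse left out, calls over all 19938 genes were 466 (CLEC4C-DTR replicate 2), 108 (CLEC4C-DTR replicate 3), 167 (control replicate 1) and 67 (control replicate 3). Neutrophil rises numbered 2 if CLEC4C-DTR replicate 3 or control replicate 3 was dropped, S100a8 and S100a9 in each fit. They numbered 3 if control replicate 1 was dropped and 4 if CLEC4C-DTR replicate 2 was. Macrophage rises numbered 1 if CLEC4C-DTR replicate 3 was dropped and 2 if control replicate 1 or control replicate 3 was. The part of these cells in the rises of Il10, Il10ra, Il19 and Il24 was not tested.

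Lymphocyte markers differed less evenly, where limma called 9.32% of all genes. Of 8 T cell markers 2 rose and none fell (list mean 0.44 to 0.86 in CLEC4C-DTR mice and -0.13 to 0.16 in controls, log2): the adhesion molecule Cd2 by 1.18 and the costimulatory receptor Icos by 1.37 (log2). Cd4 differed by 0.36 (adjusted p = 0.0502) and Cd3e by 0.28 (adjusted p = 0.0655). Of 6 regulatory T cell markers 4 rose and 1 fell (list mean 0.50 to 0.84 and -0.12 to 0.17, log2). Ctla4, an inhibitory receptor, rose by 1.75, Il2ra, the IL-2 receptor alpha chain, by 1.28, the costimulatory receptor Tnfrsf9 by 0.82 and Foxp3, the factor that defines these cells, by 0.39 (log2). The one that fell was Ikzf2, by 0.53 on the log2 scale, named after its values were seen. Of 8 measured markers of type 17 lymphocytes, a source of IL-22, none rose and 1 fell, the ligand-activated factor Ahr, by 0.52 on the log2 scale (adjusted p = 0.0212). Il17a differed by 0.64 (adjusted p = 0.0804), Il17f by 0.39 (adjusted p = 0.159) and Cd163l1, a receptor of gamma delta T cells, by 0.32 (adjusted p = 0.209).

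These lymphocyte counts depended on single mice. T cell rises numbered 4 if CLEC4C-DTR replicate 1 was dropped and 1 if CLEC4C-DTR replicate 3 or control replicate 1 was. If control replicate 3 was dropped limma called 0, although 6 had an unadjusted p under 0.05. Regulatory T cell rises numbered 1 if control replicate 1 was dropped, and limma called 0 if CLEC4C-DTR replicate 3 or control replicate 3 was, although 5 had an unadjusted p under 0.05 in each fit. Ahr passed without CLEC4C-DTR replicate 1 or control replicate 2 and in no other such fit, and Ikzf2 without CLEC4C-DTR replicate 1 and in no other. Type 17 rises numbered 2 without CLEC4C-DTR replicate 1, Il17a (limma adjusted p = 0.00428) and Il23r, a chain of the IL-23 receptor (0.0300, named after its values were seen), and 0 without any other mouse. The part of these cells in the members' differences was not tested.

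Keratinocyte markers differed in both directions beside Il20ra and Il20rb. Of 8 measured, 1 fell and none rose, where limma called 9.32% of all genes. The list mean was -0.41 to -0.05 (log2) in CLEC4C-DTR mice and -0.04 to 0.02 in controls. The groups all but met, at -0.051 in CLEC4C-DTR replicate 3 and -0.043 in control replicate 2. Differences were positive in 4 of the 8 markers, with a median of -0.06 (log2). The difference farthest from 0 was that of Krt15, which weighs most in the list mean. The one that fell was Krt15, a keratin of basal and hair follicle stem cells, by 1.59 on the log2 scale (adjusted p = 0.0193). It did not pass without CLEC4C-DTR replicate 3, control replicate 1 or control replicate 3. Trp63, the transcription factor of stratified epithelia, differed by -0.33 (adjusted p = 0.110) and the desmosomal cadherin Dsg3 by 0.39 (adjusted p = 0.0528). Without CLEC4C-DTR replicate 1 Trp63 fell as well (adjusted p = 0.0322), and without control replicate 2 Dsg3 rose (adjusted p = 0.0460). Krt10 differed by -0.46 (adjusted p = 0.120), with no overlap between the groups. Named after their values were seen, Krt5, Krt1 and Cdh1 differed by -0.15, 0.46 and 0.14 (log2). Krt14, a basal keratin chosen the same way, had log2 values of 12.04 to 12.22 in CLEC4C-DTR mice and 12.01 to 12.14 in controls. CLEC4C-DTR replicate 2 had the lowest list mean, -0.41, and also the lowest values of Il20ra and Il20rb. The part of keratinocyte content in those differences was not tested.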

How the data were processed

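Biotin-labelled RNA of whole skin was hybridised to Affymetrix mouse gene arrays, per the labels' protocols. The deposited values are on a log2 scale and come from RMA, which corrects background, equalises the arrays' distributions and summarises each probe set, per the design text. RMA compresses differences of dim genes. The build mm8 stands in the submitters' processing notes, and the RMA software was not given in the sources used here. Array medians were 6.17 to 6.23 (log2). Having 3 arrays per group limits precision.

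Of 35556 probe sets, 21789 carry 1 symbol, 1621 several and 12146 none. RefSeq names (GRCm38.p6) were found for 21698. The brightest probe set per gene gave 19938 genes, with no level filter. CLEC4C-DTR was compared with control in limma 3.58.1 (R 4.3.3, lmFit and eBayes, two-sided, no covariate, Benjamini-Hochberg over all genes), tested on simulated data, and adjusted p-values are from that fit. No 2 arrays were identical, and replicates are separate mice.

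The 10 genes and the 20 lists around them were chosen with earlier results of these data known, so their p-values are no independent evidence. Lists were described by counts and medians. Named were the 10 genes, up to 4 genes per list with the smallest p, up to 3 neighbours on each side of the Il10 locus and the 3 closest genes to each called gene. Genes named otherwise are said to be. Alternatives were scaling, level filters, variance moderation, array weights, probe set rules, a replicate block and each array left out. Figures used matplotlib 3.10.9 in Python 3.11.15.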

Additional observations from a re-analysis of the deposited data

How the results depend on the processing

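The difference of each of the 9 genes, read from its brightest probe set or from the mean of its probe sets, kept its direction under every alternative that tested it. With every probe set tested, the dimmer probe set of Il22ra1 went the other way (-0.16 against 0.32, log2). With all arrays 4 rose, 1 fell and 4 of these passed at 2-fold or more. With robust variance moderation 1 rose (Il10), 1 fell (Il20rb) and 1 passed at 2-fold. Without moderation across genes 0 rose, 0 fell and 0 passed at 2-fold, with 6 of the 9 at an unadjusted p under 0.05, and limma called 0 higher and 0 lower over all genes (4387 at an unadjusted p under 0.05). With every probe set tested the counts were also 0, 0 and 0 (7 at an unadjusted p under 0.05), with 57 probe sets higher and 38 lower, from 35556 tests in place of 19938. Array weights gave 5 rises and 2 falls, with Il10rb and Il20ra added. Il10rb also passed under both level filters, where Il10 and Il20 were not tested.

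The replicate numbers gave correlations of deviations of -0.06, 0.22 and 0.10 for replicates 1, 2 and 3, and not every array correlated best with its own number, so they were not taken as pairs. With the replicate block 5 of the 9 genes rose and 2 fell, and 2084 genes were called in place of 1858.

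With 1 array left out, 0 to 5 of the 9 genes rose, 0 to 2 fell and 0 to 5 passed at 2-fold, with 49 to 1342 genes higher and 18 to 1275 lower over the whole table. Adjusted p in these fits was 0.000204 to 0.106 for Il10, 0.0204 to 0.118 for Il19, 0.0166 to 0.149 for Il24, 0.0162 to 0.127 for Il10ra and 0.0190 to 0.153 for Il20rb. Of the 55 genes of the lists that were called with all arrays, 9 passed in each of the 6 fits. They were S100a8, S100a9, Cxcl5, Krt17, Lcn2, Krt6a, Krt6b, Defb14 and Cd68. Without signal over background in the table, the low level of Il10 and Il20 limits what their values show.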

Other observations

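Calls among markers of the other cell types fixed in the lists stand beside 9.32% of all genes called, 5.01% as higher and 4.31% as lower. Of 8 conventional dendritic and Langerhans cell markers 3 rose and none fell: Itgax by 0.53, the lymph node homing receptor Ccr7 by 0.69 and Clec9a, a receptor for dead cells, by 1.60 (log2). Flt3 differed by 0.23 (limma adjusted p = 0.278). These rises were 3 without CLEC4C-DTR replicate 1 and 0 in limma with any other array left out, where 3 or 4 had an unadjusted p under 0.05. Among 6 plasmacytoid dendritic cell markers limma called 0, although 2 had an unadjusted p under 0.05. Tcf4, a transcription factor these cells need, differed by -0.41, Bst2 by 0.57, Ccr9 by -0.26 and Ly6d by -0.17 (log2). Without CLEC4C-DTR replicate 1 there was 1 fall, and without control replicate 2 there was 1 rise. Among 6 mast cell markers limma called 0, 0 had an unadjusted p under 0.05, and Kit, Cpa3, Cma1 and Fcer1a differed by 0.12, -0.23, 0.09 and -0.13 (log2). Among 4 B and plasma cell markers limma called 0, 1 had an unadjusted p under 0.05, and Cd79b, Ms4a1, Cd79a and Jchain differed by 0.31, -0.09, 0.12 and 0.01 (log2).

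The single calls in the next 3 lists stand beside 9.32% of all genes called. In the stroma, 1 of 6 fibroblast markers rose, the growth factor receptor Pdgfra by 0.53, while Col1a2, Lum and Dcn differed by -0.41, -0.38 and -0.21 (log2). Of 5 endothelial markers 1 rose, the adhesion molecule Pecam1 by 0.40, and Tek, Kdr and Vwf differed by -0.23, -0.11 and -0.11 (log2). Of 5 skeletal muscle markers 1 fell, the myosin light chain Mylpf, by 1.06 on the log2 scale, and Ttn, Acta1 and Ckm differed by -0.60, -0.57 and -0.46 (log2). Each of these single calls was lost without CLEC4C-DTR replicate 2, CLEC4C-DTR replicate 3, control replicate 1 or control replicate 3. That of Pecam1 was lost without control replicate 2 as well, and muscle falls were 3 without CLEC4C-DTR replicate 1.

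Iltifb, the near-identical copy of Il22, has 1 probe set listed with its symbol alone. Its log2 values were 2.96, 3.39 and 3.03 in CLEC4C-DTR mice and 3.15, 2.90 and 2.71 in controls, which overlapped (log2 difference 0.20, SE 0.15, limma adjusted p = 0.417). It was chosen after its values were seen, and whether its probes also read Il22 was not tested.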
